A study of Mus musculus with 6 samples.

Results

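The 10 genes described here carry, answer or restrain the signal of erythropoietin in red cell precursors: the receptor gene Epor, the kinase gene Jak2, the transcription factor genes Stat5a and Stat5b, and the target and feedback genes Cish, Socs1, Socs2, Socs3, Pim1 and Osm. All probe sets annotated to a single one of these symbols were taken, which gave 21 probe sets for 10 of the 18193 genes named on the arrays. Epor, Cish, Socs1 and Osm had 1 probe set each, Jak2, Stat5a, Stat5b and Pim1 had 2, Socs3 had 3 and Socs2 had 6. Where a gene had several, the brightest stands for the gene and the others are given beside it. Gene expression was measured on Affymetrix arrays, 1 array per mouse, in bone marrow cells of females aged 6 weeks. The knockout group held 3 mice whose Bcl11a alleles were floxed and that carried EpoR-Cre (Bcl11a fl/fl EpoR-Cre+). The control group held 3 mice with intact Bcl11a (Bcl11a +/+), whose labels name no Cre. Cells were sorted as positive for CD71, the transferrin receptor, and for Ter119, a surface antigen of red cell precursors. Within each group the replicates are numbered as separate mice, and the strain is not stated. The Epor gene drives Cre in red cell precursors, and whether Cre also acted in other marrow cells was not tested. The recombinase sits in the Epor gene itself, so Bcl11a inactivation and an altered Epor allele came together in the knockouts, and their effects cannot be told apart.

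Erythropoietin binds a receptor on red cell precursors that has no enzyme activity of its own and works through the bound kinase JAK2. JAK2 phosphorylates STAT5, which enters the nucleus and switches on survival genes together with genes of the CIS and SOCS family. The proteins of that family bind the active receptor or the kinase and shut the signal down, so their transcripts are often read as a sign of STAT5 activity.

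Promoters of 3 genes are shown because Epor is the gene that carries Cre and because, of the 8 genes with a RefSeq promoter, Cish and Socs3 were the 2 that held the STAT5 word TTCNNNGAA. Each window runs from 250 bases before to 30 bases after the RefSeq start of the gene, on the gene's strand, in GRCm38.p6. The windows are chr9:21963547-21963826 on the minus strand for Epor, chr9:107296409-107296688 on the plus strand for Cish, and chr11:117969337-117969616 on the minus strand for Socs3.
Epor: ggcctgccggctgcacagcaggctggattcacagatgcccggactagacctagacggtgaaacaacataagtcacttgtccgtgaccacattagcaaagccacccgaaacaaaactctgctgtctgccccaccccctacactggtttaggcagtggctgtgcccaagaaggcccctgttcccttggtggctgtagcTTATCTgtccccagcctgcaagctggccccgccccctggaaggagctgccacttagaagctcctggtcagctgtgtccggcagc
Cish: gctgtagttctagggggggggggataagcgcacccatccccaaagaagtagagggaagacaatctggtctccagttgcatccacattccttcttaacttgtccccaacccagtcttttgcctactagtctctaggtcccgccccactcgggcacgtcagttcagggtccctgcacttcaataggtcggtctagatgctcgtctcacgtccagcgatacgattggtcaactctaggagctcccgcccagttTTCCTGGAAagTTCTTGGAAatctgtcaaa
Socs3: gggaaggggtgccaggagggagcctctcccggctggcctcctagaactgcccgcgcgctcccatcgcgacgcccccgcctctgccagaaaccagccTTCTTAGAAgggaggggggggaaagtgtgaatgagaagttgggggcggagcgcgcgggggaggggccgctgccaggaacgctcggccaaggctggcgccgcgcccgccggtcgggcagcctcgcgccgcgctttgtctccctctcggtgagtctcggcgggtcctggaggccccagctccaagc
Capitals in Epor mark the 1 GATA word, TTATCT, searched on either strand (the word AGATAA or the word AGATAG, and likewise the word TGATAA or the word TGATAG), whose first base lies 54 bases before the start. Capitals in Cish and Socs3 mark TTCNNNGAA, which reads the same on both strands. Cish has 2 such words, TTCCTGGAA and TTCTTGGAA, and Socs3 has 1, TTCTTAGAA. Those of Cish begin at bases 1 and 12 counted from the RefSeq start, so neither lies before it. That of Socs3 begins 154 bases before the start. Of 32851 RefSeq windows of this length, 7.83% held TTCNNNGAA at least 1 time, 0.408% at least 2 times, and 28.7% held a GATA word. A match describes letters only.

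The arrays were alike in level, with median intensities between 67.5 and 70.9, and the labels were checked on the embryonic globin Hbb-y, whose brightest probe set lay between 19266 and 20104 in the knockouts and between 67.4 and 80.9 in the controls. The targeted gene Bcl11a had 7 probe sets with log2 changes from -0.40 to 0.32, none past the test. Its brightest had 1286, 1419 and 1190.1 in the knockouts, and 1475, 1553 and 1450 in the controls; whether any probe lies in the deleted part is not known here, so these values do not check the deletion. Of 8 erythroid markers 6 were measured, which here means that a probe set was annotated to that symbol alone. Their summed intensity was 79527 to 86125 in the knockouts and 63504 to 76257 in the controls. Of the 6, 5 were higher in every knockout mouse than in any control mouse, against 12.4% of all genes. In the brighter 50% of probe sets 28.2% did not overlap in either direction. Control mouse 2 had the lowest sum. Neutrophil genes were also very bright: of 11 markers 8 lay in the brightest 1% of probe sets in the controls, and S100a8 was at the maximum of every array. Their sum was 198064 to 207576 in the knockouts and 213830 to 216768 in the controls. Pre-B cell genes were present as well, with summed intensities of 39476 to 42729 in the knockouts and 41203 to 45279 in the controls over 9 of 10 markers. Most of this sum was Cd24a, at 27317.5 to 28667 in the knockouts and 24820 to 27193 in the controls, a gene that red cell precursors also express. Without Cd24a, left out after the values were seen, the other 8 summed to 10808.5 to 14762 in the knockouts and 15380.0 to 18086 in the controls, with no overlap. Summed levels of T and NK cell, monocyte, megakaryocyte and basophil or mast cell lists overlapped between the groups, though all 7 measured basophil, mast cell and eosinophil markers had log2 changes below 0. Intensity depends on the probes as well as on the RNA, so these levels do not give the share of each cell type. In such bulk samples, fewer cells of a type and less RNA per cell cannot be told apart.

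None of the 21 probe sets passed the test (limma, two-sided, adjusted over 45037 probe sets, threshold 0.05), where 0.147% of all probe sets did. At an unadjusted p under 0.05 there were 7 of 21, 4 higher and 3 lower, against 12.4% of all probe sets. All 3 knockouts lay on the same side of all 3 controls in 9 of 21, against 19.5% of all probe sets. With 1 probe set per gene they did not overlap in 6 of 10, against 21.6% of all genes. Jak2, Cish and Pim1 lay above in every knockout mouse, as 12.4% of all genes did, and Stat5a, Socs2 and Osm lay below, as 9.22% did. In the brighter 50% of probe sets the share without overlap was 28.2%. The median log2 change of the 10 genes was -0.07, and that of all genes by their brightest probe set was -0.001.

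**Figure D1:**
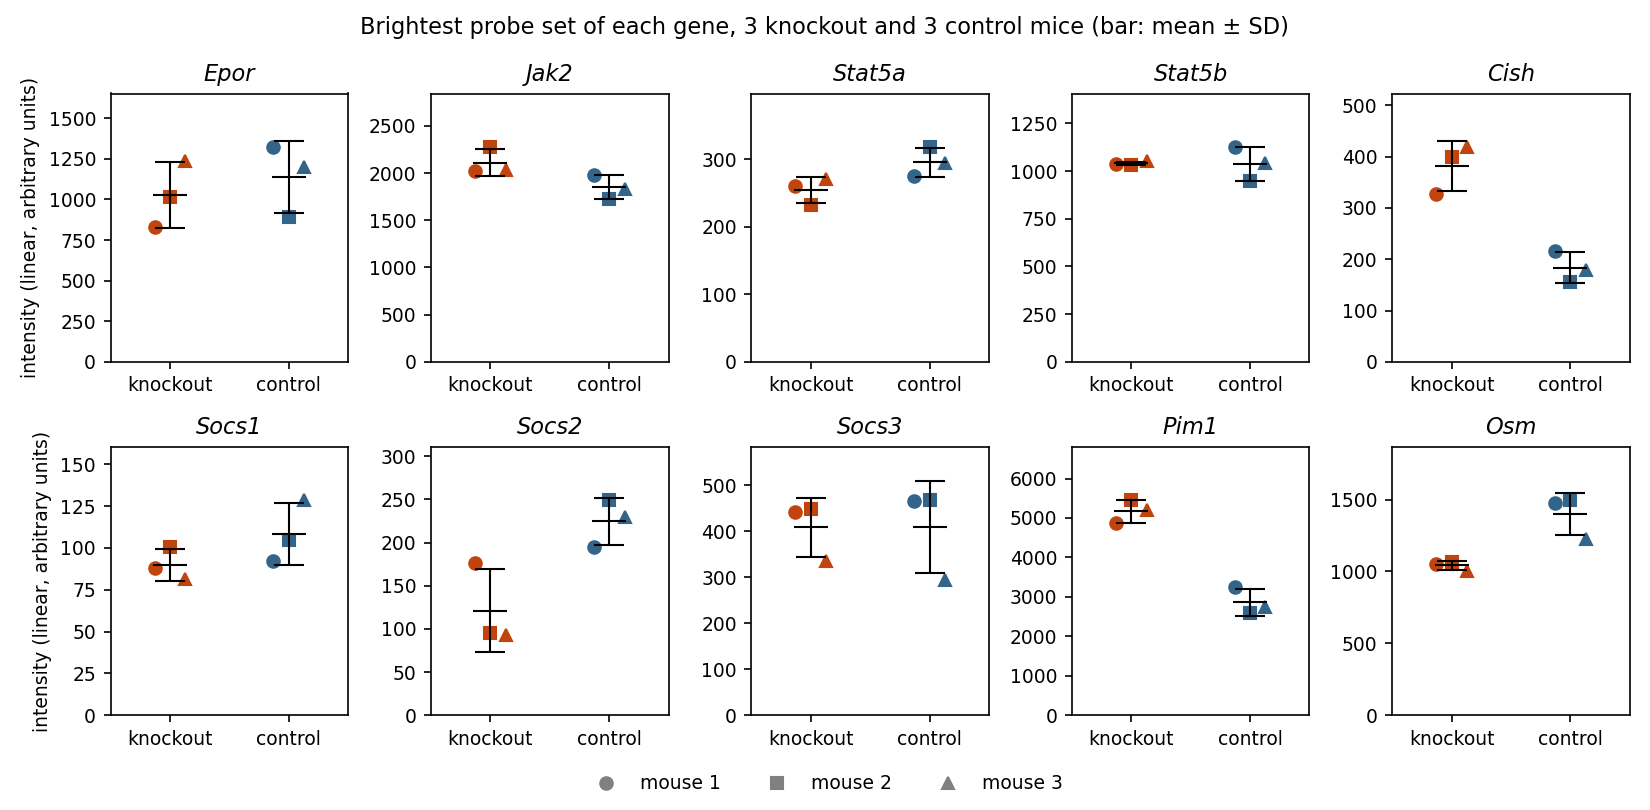
Intensity (linear, arbitrary units) of the brightest probe set of each of the 10 genes in 3 knockout and 3 control mice; points are mice and bars are mean ± SD. The knockout points of Cish and Pim1 lie above all control points, those of Socs2 and Osm lie below, and those of Epor overlap the controls.

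Epor, the receptor gene, did not differ beyond the spread between mice. Its intensity was 830.1, 1013 and 1237 in the knockout mice, and 1322, 890.2 and 1199 in the control mice. The lowest and the second highest of the 6 values were both knockouts, so the groups overlapped fully. The mean was 1027 ± 204 in the knockouts and 1137 ± 222 in the controls (SD, n = 3 each). The log2 change was -0.14 ± 0.21 (SE, limma, adjusted p = 0.824), with a 95% interval from -0.64 to 0.35. The sources at hand do not place the probes relative to the inserted Cre, so it is unknown whether they also read a transcript of the altered allele.

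Within each group, Epor had the same order of mice as the erythroid markers, a pattern read after the values were seen. In the controls both Epor and the mean log2 value of the 6 measured erythroid markers were lowest in mouse 2, then mouse 3, then mouse 1. In the knockouts both ran from mouse 1 through mouse 2 to mouse 3. How many of all genes share these orders was not counted. The difference between the log2 value of Epor and that marker mean was -3.49, -3.30 and -3.08 in the knockout mice, and -2.66, -2.82 and -2.65 in the control mice. On this scale, which was chosen after the values were seen, every knockout mouse lay below every control mouse, by 0.58 on average. That position is common, since 51.9% of all genes share it by their brightest probe set, and their median difference, knockout minus control, was -0.44. With the marker mean as a covariate the log2 change of Epor was -0.90 (limma, adjusted p = 0.481, unadjusted p = 0.0130), a fit in which the covariate itself differs between the groups.

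**Figure D2:**
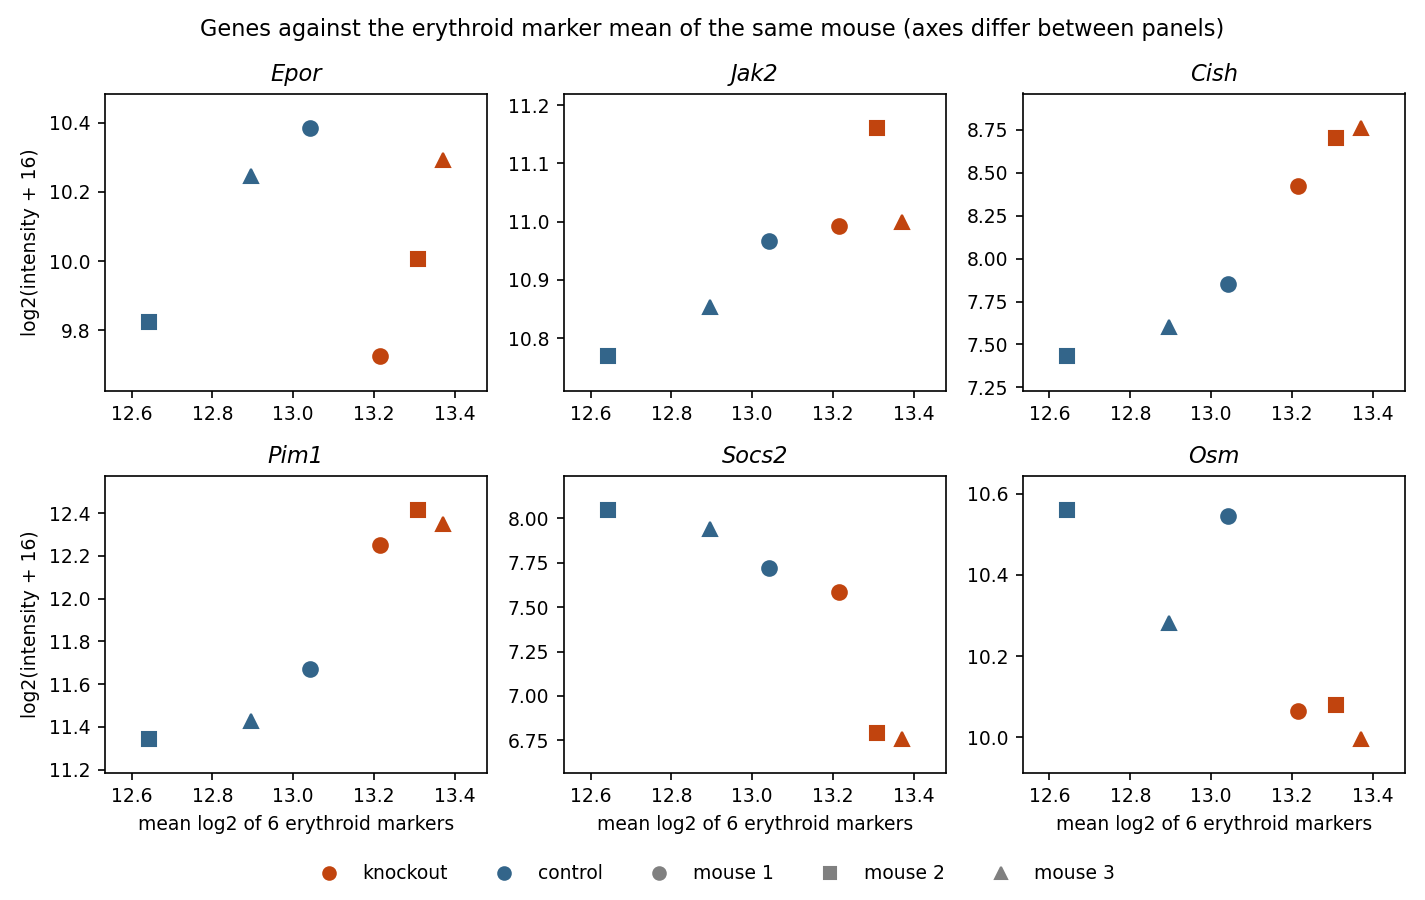
Log2(intensity + 16) of 6 genes (vertical axes, which differ between panels) against the mean log2 value of 6 erythroid markers on the same array; colours are groups and symbols are mice. In both groups Epor is higher in mice with a higher marker mean, but the knockouts lie lower for their marker mean. Cish is higher from left to right across all 6 mice, and Pim1 nearly so.

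The neighbours of Epor in RefSeq order were read because Cre was inserted in that gene. Epor lies on the minus strand, so genes at lower coordinates are beyond its end. The gene Gm45914, on the side beyond the end of Epor, had intensities of 170.1, 230.3 and 231 in the knockouts, and 119, 104 and 149.9 in the controls. These values did not overlap, and the log2 change was 0.69 ± 0.18 (SE, limma, adjusted p = 0.228). Swsap1, which overlaps Gm45914 in the annotation, had a log2 change of -0.03 ± 0.15 (SE, adjusted p = 0.961). On the side before the start of Epor, Rgl3 had -0.04 ± 0.29 (adjusted p = 0.976) at intensities of 15.9 or less, and the brighter of 2 probe sets of Ccdc151 had 0.31 ± 0.22 (adjusted p = 0.624). The 3 genes whose log2 profile over the 6 mice lay nearest to that of Epor, of 10828 genes among the brighter 50% of probe sets, were Camk2a, Iqsec3 and Slc30a10. Their mean absolute differences from Epor, after centring each on its own mean, were 0.04, 0.06 and 0.06 on the log2 scale, where the median over the candidates was 0.25.

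Jak2, the kinase bound to the receptor, was higher in the knockouts by 2 probe sets of unequal size of change. The brighter had intensities of 2021, 2274 and 2031 in the knockout mice, and 1985, 1728 and 1835 in the control mice. The groups did not overlap, but the gap between the nearest mice was small. The mean was 2109 ± 143 in the knockouts and 1849 ± 129 in the controls, with a log2 change of 0.19 ± 0.11 (SE, limma, adjusted p = 0.533).

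The dimmer probe set of Jak2 had 737, 765 and 770.2 in the knockouts, and 574, 545 and 525 in the controls. Here the groups stood well apart, with a log2 change of 0.46 ± 0.09 (SE, limma, adjusted p = 0.171). This call depended on the fit: the dimmer probe set passed with a pseudocount of 64 (adjusted p = 0.0398), in the brighter 50% of probe sets (adjusted p = 0.0265) and with an intensity trend and robust moderation (adjusted p = 0.00933). Those 3 fits called 1.24%, 3.73% and 3.21% of the probe sets they tested. By their brightest probe set 2, 2 and 4 of the 10 genes passed in them, against 1.56%, 3.6% and 4.23% of all genes tested. With the erythroid marker mean as a covariate the brighter probe set of Jak2 had a log2 change of -0.01 (adjusted p = 0.996). With that mean subtracted instead, the 2 probe sets differed. The brighter lay below in every knockout mouse, by 0.25 on average, and the dimmer overlapped, with a difference of 0.02.

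The STAT5 genes, which encode closely related transcription factors whose probes may cross-react, did not pass. Stat5a had intensities of 260.5, 232 and 269.7 in the knockouts, and 274, 318 and 294 in the controls. All knockout values lay below, with a log2 change of -0.20 ± 0.11 (SE, limma, adjusted p = 0.508). The dimmer probe set of Stat5a pointed the other way, at 0.18 ± 0.15 (SE, adjusted p = 0.664), and its groups overlapped. Averaged over both probe sets, the log2 change of Stat5a was -0.0098. Stat5b had 1038, 1034 and 1050.2 in the knockouts, and 1125, 945 and 1040.0 in the controls, with a log2 change of 0.01 ± 0.10 (SE, adjusted p = 0.984) and a 95% interval from -0.24 to 0.26. The 3 knockout values were close together and fell inside the control range. The dimmer probe set of Stat5b had 0.21 ± 0.12 (SE, adjusted p = 0.536). The sign of the brighter Stat5b probe set turned with the scaling, at -0.06 after quantile normalization and -0.03 after cyclic loess. Of the 5 other STAT genes 4 were measured and none passed: Stat6 had a log2 change of -0.17, Stat4 -0.18, Stat2 0.15 and Stat3 -0.10.

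Cish was higher in every knockout mouse than in any control mouse. It encodes CIS, a feedback inhibitor that docks on the activated receptor and is a direct STAT5 target. Its intensity was 327, 400.0 and 418 in the knockout mice, and 215, 156 and 178 in the control mice. The lowest knockout value lay well above the highest control value. The mean was 382 ± 48.5 in the knockouts and 183 ± 29.8 in the controls (SD, n = 3 each), a ratio of 2.08. The log2 change was 1.00 ± 0.16 (SE, limma, adjusted p = 0.101), with a 95% interval from 0.62 to 1.37.

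Pim1, a survival kinase that STAT5 induces, was higher in the knockouts by both of its probe sets. The brighter had 4860, 5444 and 5198 in the knockout mice, and 3241, 2587 and 2743 in the control mice. The groups stood far apart. The mean was 5167 ± 294 in the knockouts and 2857 ± 341 in the controls, a ratio of 1.81 and a log2 change of 0.86 ± 0.12 (SE, limma, adjusted p = 0.0889). The dimmer probe set had 1985, 1989 and 1926 in the knockouts, and 1523, 1158 and 1277 in the controls, with a log2 change of 0.58 ± 0.13 (SE, adjusted p = 0.188).

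Neither Cish nor Pim1 passed the test, and both passed under the 3 other fits named for Jak2. The adjusted p was 0.0174, 0.0131 and 0.00117 for Cish, and 0.00954, 0.00990 and 0.000104 for the brighter probe set of Pim1, with a pseudocount of 64, in the brighter 50% and with trend and robust moderation. Cish had the same order of mice as the erythroid marker mean over all 6 mice, and the brighter probe set of Pim1 had it except for knockout mice 2 and 3. The share of all genes with such an order was not counted. Gata1, the erythroid transcription factor, had a log2 change of 0.70 ± 0.17 (SE, adjusted p = 0.216) and Klf1, its partner at globin genes, 0.65 ± 0.19. Epb42, a red cell membrane protein gene, had 0.75 ± 0.15. The other erythroid markers had smaller log2 changes, 0.38 for Tfrc, 0.21 for Slc4a1 and -0.06 for Alas2. After the marker mean of the same mouse was subtracted, Cish was at -4.79, -4.61 and -4.61 in the knockouts, and at -5.19, -5.21 and -5.29 in the controls. The brighter probe set of Pim1 was at -0.96, -0.89 and -1.02 in the knockouts, and at -1.37, -1.30 and -1.46 in the controls. On this scale all knockout mice lay above all controls for both, as in 1.29% of all genes by their brightest probe set. The marker mean joins genes with log2 changes from -0.06 to 0.75. A place above that mean therefore does not set a gene apart from erythroid genes. The dimmer probe set of Pim1 overlapped, at -2.25, -2.34 and -2.45 in the knockouts, and at -2.45, -2.45 and -2.56 in the controls. By their brightest probe set 7 of the 10 genes lay below, against 51.9% of all genes, and Socs3 overlapped. Among the 7 was Jak2, whose dimmer probe set overlapped. With the marker mean as a covariate the log2 changes were smaller, at 0.48 for Cish (adjusted p = 0.578) and 0.52 for Pim1 (adjusted p = 0.549).

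**Figure D3:**
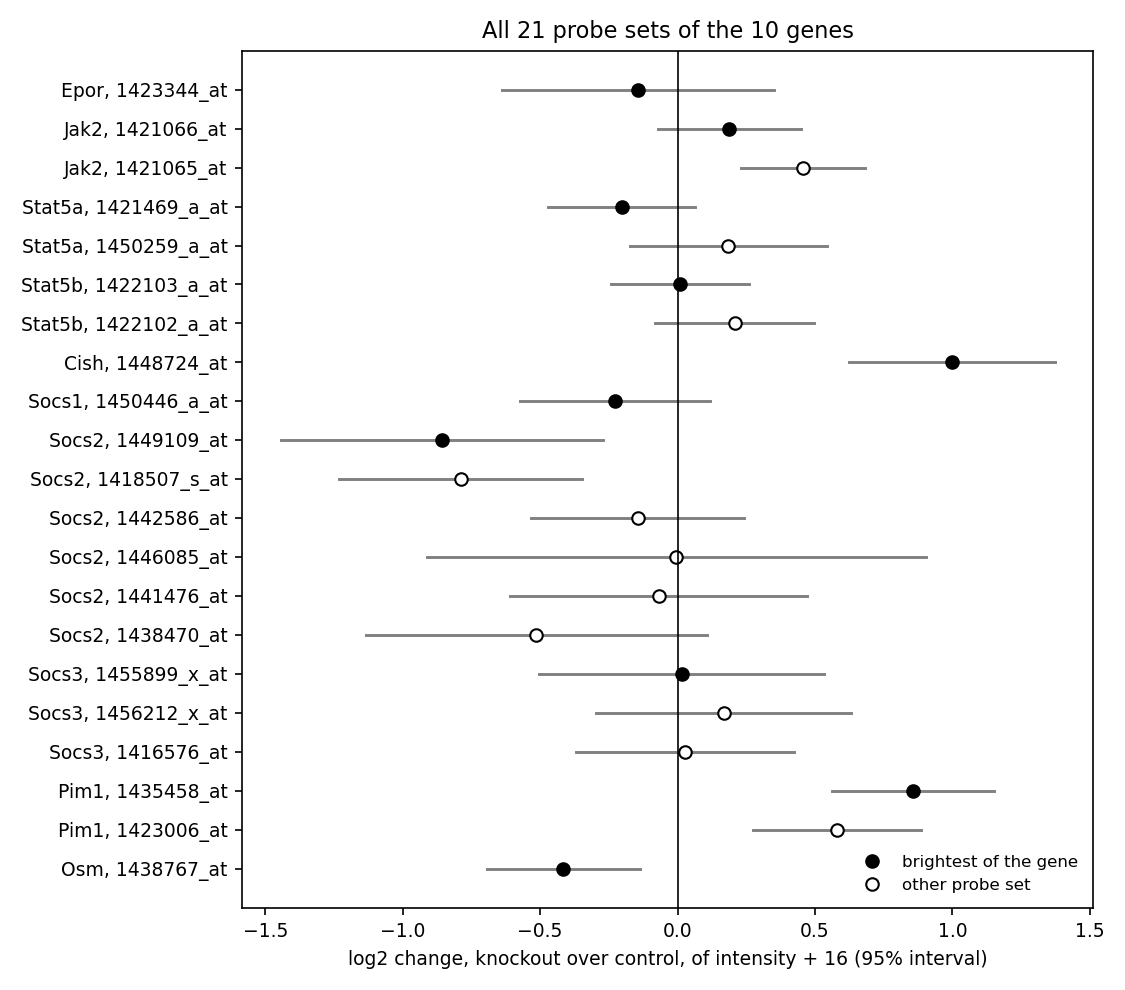
Log2 change of knockout over control (horizontal axis) with its 95% interval from the limma fit for all 21 probe sets; filled points are the brightest of each gene. The intervals of Cish, both Pim1 probe sets and the dimmer Jak2 probe set lie above 0, those of Osm and 2 Socs2 probe sets lie below 0, and that of Epor spans 0.

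Socs2, a relative of CIS best known as a brake on growth hormone signalling, was lower in the knockouts. Its brightest probe set had 176, 94.8 and 92.4 in the knockout mice, and 195, 249 and 230.1 in the control mice. Knockout mouse 1 stood apart from the other knockouts and close to the lowest control. Without knockout mouse 1 the log2 change of this probe set was -1.13. The mean was 121 ± 47.7 in the knockouts and 225 ± 27.3 in the controls, giving a log2 change of -0.86 ± 0.24 (SE, limma, adjusted p = 0.262). A second probe set had 93.5, 77.1 and 59.9 in the knockouts, and 116, 159 and 157 in the controls, giving a log2 change of -0.79 ± 0.18 (SE, adjusted p = 0.208). These probe sets passed with trend and robust moderation (adjusted p = 0.0354 and 0.0315), and the second also passed in the brighter 50% (adjusted p = 0.0486). The other 4 probe sets of Socs2 were dim, with log2 changes between -0.51 and -0.01, and their groups overlapped. Averaged over all 6 probe sets, the log2 change of Socs2 was -0.40 (adjusted p = 0.138).

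Pre-B and progenitor markers were also lower on average in the knockouts. Igll1, a surrogate light chain gene of pre-B cells, had 994, 595 and 593 in the knockouts, and 1528, 2091 and 1730.3 in the controls. Vpreb1, its partner, had 1007, 552 and 653 in the knockouts, and 1418, 1934 and 1623 in the controls. Of the 9 measured pre-B markers 8 had a log2 change below 0, with a median of -0.36, and of the 8 stem and progenitor markers all 8 did, with a median of -0.27. Like Socs2, 2 of the 9 pre-B markers and 5 of the 8 progenitor markers were highest among the knockouts in mouse 1, while 6 and 3 were highest in mouse 2. The summed level of the progenitor list was 7210 to 10359.8 in the knockouts and 11221 to 12340 in the controls. With the erythroid marker mean as a covariate the log2 change of Socs2 was -0.24 (adjusted p = 0.900). With that mean subtracted instead, the difference, knockout minus control, was -1.30, and -1.23 for the second probe set. In both, every knockout mouse lay below every control mouse, as in 51.9% of all genes by their brightest probe set. The 2 ways of using the marker mean thus gave unlike sizes. The part of the pre-B and progenitor markers in the result for Socs2 was not tested.

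**Figure D4:**
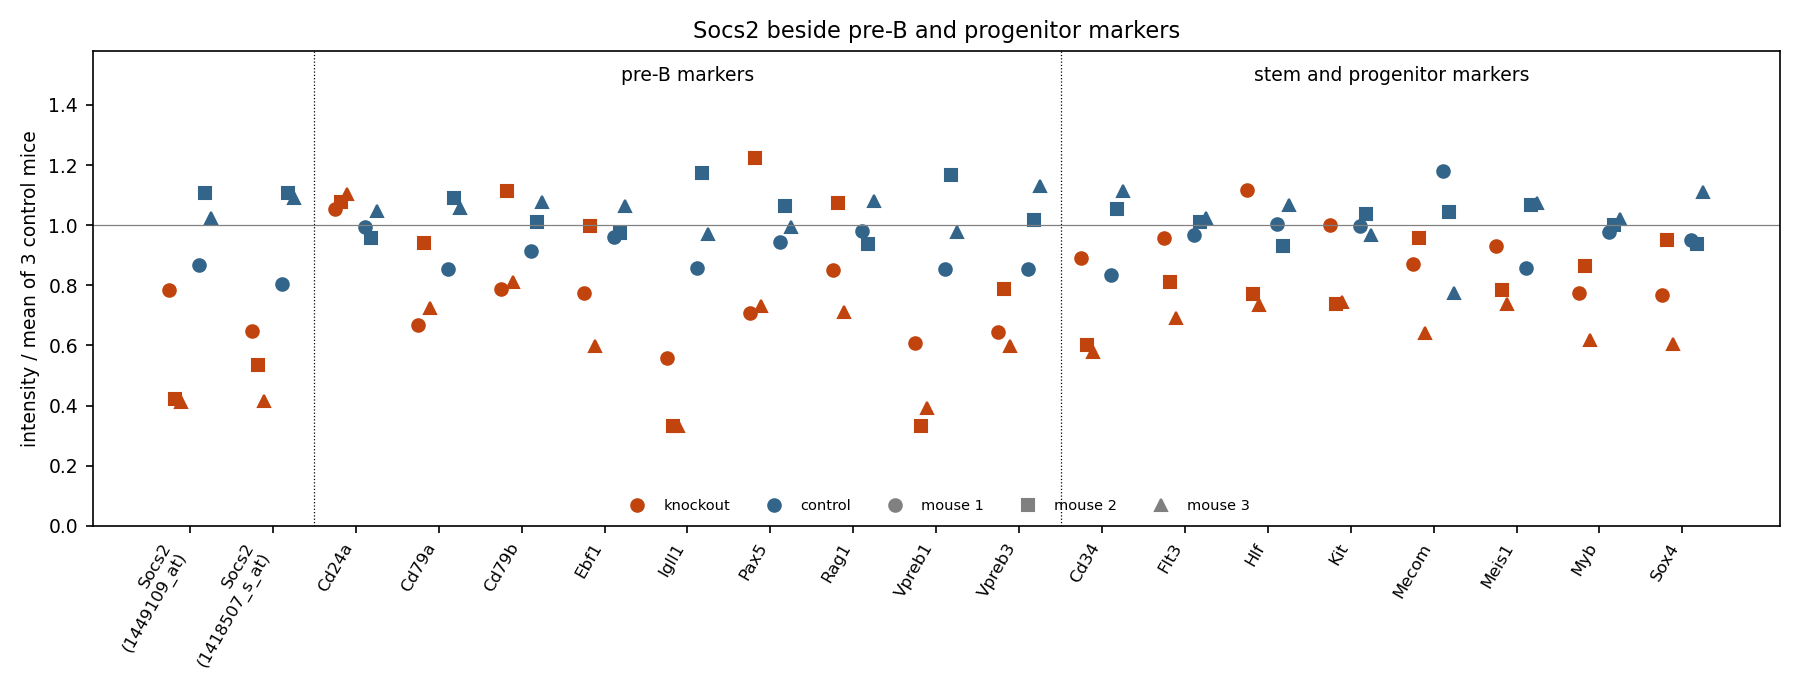
Intensity divided by the mean of the 3 control mice for 2 probe sets of Socs2, the 9 measured pre-B markers and the 8 stem and progenitor markers; colours are groups and symbols are mice. Knockout mouse 1 is the highest knockout for Socs2, for 2 pre-B markers and for 5 progenitor markers, and mouse 2 is for 6 and 3.

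Socs1 and Socs3, which bind and block the JAK kinases, did not differ beyond the spread between mice. Socs1 had 87.8, 100.4 and 81.2 in the knockouts, and 92.1, 105 and 128 in the controls. The groups overlapped, with a log2 change of -0.23 ± 0.14 (SE, limma, adjusted p = 0.566) and a 95% interval from -0.57 to 0.12. The brightest probe set of Socs3 had 443, 449 and 335 in the knockouts, and 467, 467 and 295 in the controls. Mouse 3 was the lowest of each group, and the same held for the other 2 probe sets of Socs3, of which the brighter, like the brightest, is of a type that can bind related transcripts. The log2 change was 0.01 ± 0.22 (SE, adjusted p = 0.987), with a 95% interval from -0.51 to 0.53, and the others had 0.17 and 0.03. The sign of the brightest turned without knockout mouse 1 (-0.05), without knockout mouse 2 (-0.06) and without control mouse 3 (-0.20).

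Osm, which encodes oncostatin M, a cytokine of the interleukin-6 family that is a known STAT5 target and is also made by neutrophils and macrophages, was lower in the knockouts. Its intensity was 1055, 1066 and 1005 in the knockout mice, and 1478, 1494 and 1229 in the control mice. The knockout values were close together and all lay below the lowest control. The mean was 1042 ± 32.3 in the knockouts and 1400.2 ± 149 in the controls, giving a log2 change of -0.42 ± 0.12 (SE, limma, adjusted p = 0.255). It passed with trend and robust moderation (adjusted p = 0.0222). Of the 11 neutrophil markers 9 had a log2 change below 0, between -0.13 and 0.05 over the list with a median of -0.08. In 6 of the 11 all knockout mice lay below all controls, against 9.22% of all genes by their brightest probe set. In the brighter 50% of probe sets the share without overlap, in either direction, was 28.2%. Monocyte and macrophage markers had a median of 0.04 over 10 measured genes, with summed intensities of 13437 to 15389 in the knockouts and 12845 to 13836 in the controls. The part of these cells in the result for Osm was not tested. The receptor for oncostatin M, Osmr, and the partner Il6st had log2 changes of 0.02 and -0.12.

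The wider pathway was read through 6 lists of genes, each gene by its brightest probe set, and none of their measured members passed the test. Other probe sets of these genes were not read. Among 25 of 30 genes of signalling close to the receptor, 13 had a log2 change above 0 and 12 below, with a median of 0.00. Foxo3, a transcription factor that the pathway holds out of the nucleus, had 0.67 ± 0.16 (SE, adjusted p = 0.215), and the exchange factor gene Sos1 had 0.40 ± 0.13. Irs2, an adaptor of the insulin receptor, had 0.44 ± 0.14, and Pik3cg, a catalytic subunit of PI3 kinase, had -0.47 ± 0.13 (adjusted p = 0.252).

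Negative regulators other than Cish, Socs1, Socs2 and Socs3 lay on both sides of 0, and none passed. Of 27 measured of 28, 12 lay above 0 and 15 below, with a median of -0.03. Among them, named for their family, Socs4, Socs5, Socs6 and Socs7 had log2 changes of 0.41, -0.03, -0.20 and 0.11. Dok1, an adaptor that dampens tyrosine kinase signals, had intensities of 1340, 1549 and 1786 in the knockouts, and 882, 807 and 875 in the controls. The groups stood apart, with a log2 change of 0.85 ± 0.13 (SE, limma, adjusted p = 0.103). Ptpn11, the phosphatase SHP2, had 3596, 3899 and 3827 in the knockouts, and 2713, 2327 and 2545 in the controls, giving a log2 change of 0.58 ± 0.11 (SE, adjusted p = 0.139). SHP2 can also promote signals, so its place in this list does not make a higher level a stronger brake. Dusp6 and Spry2, brakes of the MAP kinase branch, were lower in every knockout mouse, with log2 changes of -0.51 ± 0.13 and -0.36 ± 0.11.

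Genes of receptor maturation, traffic and degradation were measured in 19 of 19 cases, 14 above 0 and 5 below, with a median of 0.09. Rab5a, of early endosomes, had a log2 change of 0.40 ± 0.11 (SE, adjusted p = 0.248) and Cltc, the clathrin heavy chain, 0.38 ± 0.11. Stam, of the endosomal sorting machinery, had 0.31 ± 0.11, and Tfr2, which escorts the erythropoietin receptor to the surface, had 0.32 ± 0.13. Other cytokine receptors, 15 of 20 measured, had a median of -0.09. Among them Il7r, a lymphoid receptor, had -0.40, Kit, the stem cell factor receptor, -0.27, Crlf2 -0.15 and Csf2rb -0.11.

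Further erythropoietin or STAT5 target genes lay mostly below 0, and none passed. Of 21 measured of 25, 5 lay above 0 and 16 below, with a median of -0.12, against -0.001 over all genes by their brightest probe set. Tfrc, the transferrin receptor by which the cells were sorted, had 16867, 19294 and 19472 in the knockouts, and 15720.4, 12855 and 14289 in the controls, giving a log2 change of 0.38 ± 0.12 (SE, limma, adjusted p = 0.311). Bcl2l1, the survival gene of the pathway, named here after its value was seen, had 0.37 ± 0.15 (SE, adjusted p = 0.402). The immediate early gene Egr1 had 1263, 1410 and 1117 in the knockouts, and 2200, 1819 and 1497 in the controls, giving a log2 change of -0.52 ± 0.17 (SE, adjusted p = 0.314). Ccnd2, a G1 cyclin gene, and Cdkn1a, a cell cycle inhibitor gene, had -0.46 ± 0.16 and -0.30 ± 0.11. In Egr1, Ccnd2 and Cdkn1a all knockout values lay below all control values.

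**Figure D5:**
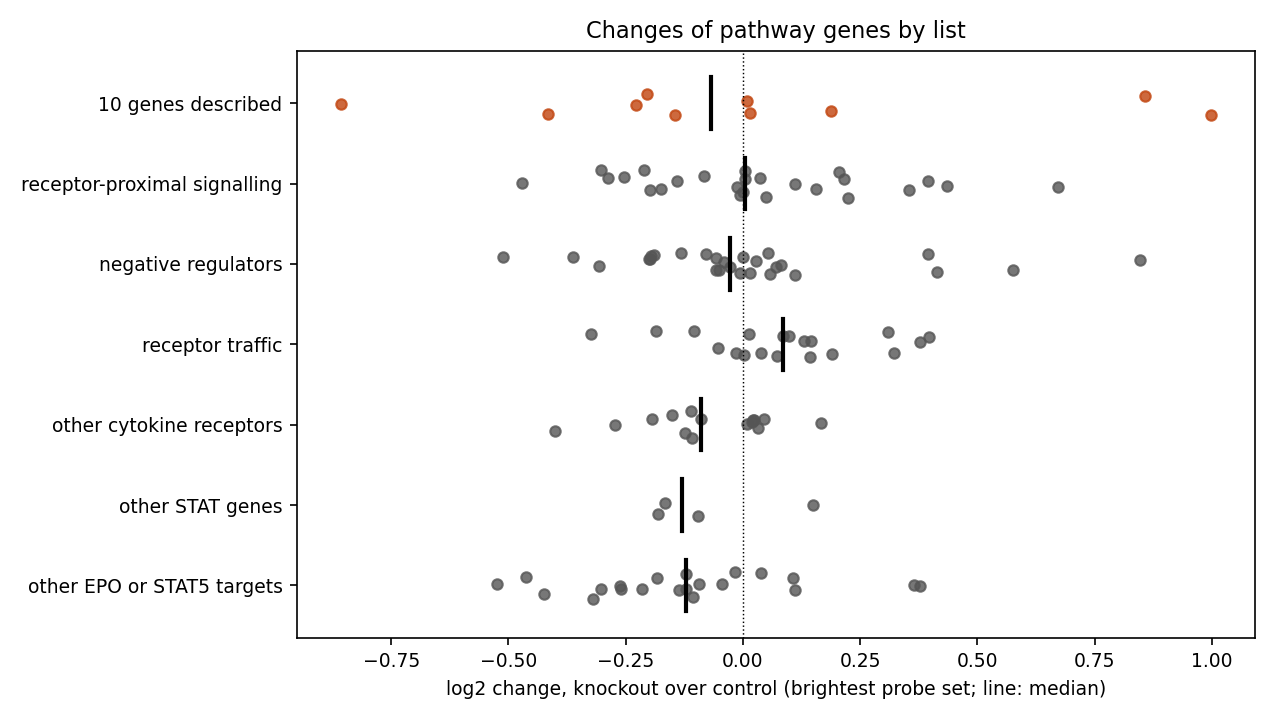
Log2 change of knockout over control by the brightest probe set (horizontal axis) for the 10 genes described and for 6 lists of pathway genes; points are genes and lines are medians. List medians lie between -0.13 and 0.09, and Cish and Pim1 lie at the right end of the 10 genes.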

How the data were processed

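RNA of sorted bone marrow cells from 3 knockout and 3 control mice was labelled with biotin and hybridised to Affymetrix arrays, per the labels' protocols. The authors deposited linear intensity values of 45037 probe sets; the sources used here name no summarising software, background correction or scaling. Array medians differed by at most 0.057 and interquartile ranges by 0.070 on the log2 scale, under the limit of 0.1 set for renormalizing, so the deposited intensity values were used. Intensity depends on the probes as well as the RNA, so levels were compared within a probe set, and marker percentiles are descriptions only.

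The platform annotation gave 34945 probe sets 1 symbol, 932 several and 9160 none; 34741 matched RefSeq (GRCm38.p6) through Entrez IDs. Log2(intensity + 16) was fitted with limma 3.58.1 in R 4.3.3 (lmFit, eBayes, two-sided) over all probe sets with Benjamini-Hochberg adjustment; this scale understates changes of dim probe sets. Means and SDs are of linear intensities. The fit was tested on simulated data.

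Named are all members, up to 4 genes per pathway list by p, the 2 measured neighbours on each side of Epor and the 3 nearest profiles. Members, lists and rules were chosen with earlier results of these data known. The smallest exact permutation p for 3 against 3 mice is 0.1. Promoter sequences are from RefSeq. Alternatives were quantile, median and cyclic loess scaling, pseudocounts of 1 and 64, the brightest 50% of probe sets, trend with robust moderation, array weights, averaging each gene's probe sets, a replicate block and leaving out each mouse. The erythroid marker mean, as a covariate or subtracted, was added after seeing the data.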

Additional observations from a re-analysis of the deposited data

How the results depend on the processing

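The count of all probe sets past the threshold was 66, and it was 38 with a pseudocount of 1, 558 with a pseudocount of 64, 839 in the brightest 50% of probe sets, 1445 with an intensity trend and robust moderation, 6 with the erythroid marker mean as a covariate, and 27 to 41 on leaving out each mouse in turn. Of the 21 member probe sets 0 passed in the reported limma fit, 4 with a pseudocount of 64, 5 of the 17 tested in the brightest 50%, and 7 with trend and robust moderation; of the 10 genes by their brightest probe set 0, 2, 2 and 4 passed. No member passed under quantile, median or cyclic loess scaling, a pseudocount of 1, array weights, the covariate, or on leaving out any mouse. The log2 change turned sign for Stat5b after quantile normalization (-0.059), cyclic loess (-0.034) and with the covariate (-0.23), and it ranged from -0.055 to 0.069 on leaving out each mouse. It turned for Jak2 with the covariate (-0.0066) and for Socs3 after quantile normalization (-0.00076), with a range from -0.20 to 0.15 on leaving out each mouse. The cause was not tested. Averaged over all probe sets of the gene, the log2 change was 0.32 for Jak2, 0.11 for Stat5b, -0.0098 for Stat5a, -0.40 for Socs2 and 0.069 for Socs3, with no member past the threshold. In these leave-out fits Cish ranged from 0.90 to 1.11, Pim1 from 0.79 to 0.95, Socs2 from -1.13 to -0.71, Osm from -0.51 to -0.37 and Epor from -0.31 to -0.0031.

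The mouse numbers are shared between the groups, but deviations of same-numbered mice correlated at -0.03, -0.01 and -0.04. These values, taken over all probe sets, show no pairing by number but cannot exclude a weak one. With the number as a replicate block 14 probe sets and 0 members passed (Cish 1.00, adjusted p = 0.431). The number of mice, and unknown background correction of dim probe sets, limit the precision.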
